A study of Homo sapiens with 21 samples.

Results

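Cholesterol is built from acetyl-CoA in 3 stages, and the genes described here are those of that route together with the proteins that sense, store and move the product. The list held 32 genes chosen by name: 20 synthesis enzymes, 6 genes for control of the transcription factor SREBP2, 4 for sterol movement and esterification, and 2 for export from the lysosome. Of these, 31 had a row among the 37637 features of the count table, and all 31 passed the filter on low counts. INSIG1 was not analysed here.

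HepG2, a line from a human hepatocellular carcinoma with many hepatocyte features, was exposed to caffeine for 24 h at 0.01, 0.1, 1, 10, 100 or 1000 µM, and the control cells received none. All 7 groups were changed from serum-containing medium to DMEM without serum at the start of the exposure, so the controls were also deprived of serum lipoproteins. Each group had 3 libraries, named biological replicates by the submitters, made from RNA selected on poly(dT) beads. All cells came from 1 line.

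SREBP2, the product of SREBF2, is made as a precursor in the endoplasmic reticulum, bound to the escort protein SCAP. When the membrane is rich in sterol, the INSIG proteins hold the pair there. When sterol is scarce, SCAP carries SREBP2 to the Golgi, where the proteases encoded by MBTPS1 and MBTPS2 release its transcription factor domain, which enters the nucleus with NF-Y and Sp1 as common partners and raises transcription of the synthesis enzymes. Hepatocytes make cholesterol for membranes, lipoproteins and bile acids, and store the surplus as esters.

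Levels are given in CPM, read counts relative to a library size scaled by TMM, and fold changes as log2 ± SE from edgeR's quasi-likelihood test in 1 fit over all 21 libraries. The 2-sided p-values were corrected over 17951 features (Benjamini-Hochberg), and a gene was called at an adjusted p under 0.05. Library totals ran from 23502519 to 44815552 counts. The libraries fell into 3 sets by the levels of their 13 mitochondrial mRNAs, which made up 9.93 to 14.2% of the counts in the 11 libraries of set A, 4.70 to 4.93% in the 7 of set B and 11.7 to 12.8% in the 3 of set C. The controls, the 0.01 and 0.1 µM groups and the first 2 replicates of the 1 µM group were in set A. The last 1 µM replicate, the whole 10 µM group, the second 100 µM replicate and all but the last 1000 µM replicate were in set B. The rest of the 2 highest doses formed set C. Dose and set are therefore partly entangled, and results are also given with the set as a term in the fit and, for 1000 against 10 µM, within set B alone. Hepatocyte marker genes were present in all libraries, with a summed level of 19702 to 26057 CPM in the controls and 10711 to 11436 CPM at 1000 µM over 6 of 6 genes. ALB, AFP and TF made up most of that sum and were lower at 1000 µM in every library, while TTR was at 87.0 to 99.98 CPM in the controls and 106 to 143 CPM at 1000 µM, and HNF4A at 203 to 283 and 275 to 301 CPM. The summed level of 4 fibroblast or stellate markers was 3.18 to 3.85 CPM in the controls and 18.2 to 23.5 CPM at 1000 µM, nearly all of it PDGFRB, with DCN at 0 at 1000 µM, and the part of these shifts in the results below was not tested. The 2 endothelial markers matched summed to at most 0.283 CPM, and of the 3 immune markers CD3E was at 0 and PTPRC at 0 to 0.0383 CPM in the controls and at 10 to 1000 µM. The third, CD68, was at 40.9 to 55.1 CPM in the controls and at 18.3, 18.2 and 46.0 CPM at 1000 µM, highest there in the set C library.

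Between the 2 highest doses the enzymes of cholesterol synthesis lost most of their mRNA. The summed level of the 20 enzymes was 4018, 4166 and 4173 CPM in the 3 control libraries and 1119, 1146 and 1131 CPM in the 3 libraries at 1000 µM. At 100 µM the sums were 3722, 3845 and 3705 CPM. All 12 libraries at 0.01 to 10 µM lay at or above 4212 CPM. In bulk RNA, fewer cells of a kind and less RNA per cell cannot be told apart. The drop at 1000 µM was thus of the same size in the set B and set C libraries, and the 100 µM sums lay below the lowest control.

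Calls among the 31 genes depended on the library sets at 10 and 100 µM and less so at 1000 µM. At 0.01, 0.1 and 1 µM edgeR called 0 of the 31 genes, where 0.0279%, 0% and 0.106% of all features were called. At an unadjusted p under 0.05 there were 9, 5 and 7 of the 31 genes, and the share of all features at that threshold was not counted. DESeq2 called 1, 0 and 2 at these doses. At 10 µM 7 genes were higher and 1 lower, against 14.8% of all features called, 7.27% higher and 7.49% lower. Leaving out any 1 of the 3 libraries at 10 µM reduced this to 5 genes. At 100 µM 9 were higher and 8 lower, against 46.5% of all features, 23.6% higher and 22.9% lower, so these genes were called about as often as features in general. At 1000 µM 6 were higher and 20 lower, against 57.6% of all features, 28.5% higher and 29.1% lower. The median log2 fold change of the 31 genes at 1000 µM was -1.47, or 36.0% of control, while that of all features was -0.01. With the library set as a term, 0 genes were called at 10 µM in place of 8, and 7 at 100 µM (3 higher and 4 lower) in place of 17. The shares of all features called in that fit were 0.0279% and 17.3%. At 10 µM 1 of the 31 genes was at an unadjusted p under 0.05. In that fit 23 genes were called at 1000 µM, 2 higher and 21 lower, against 38% of all features, 18.2% higher and 19.8% lower.

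**Figure D1:**
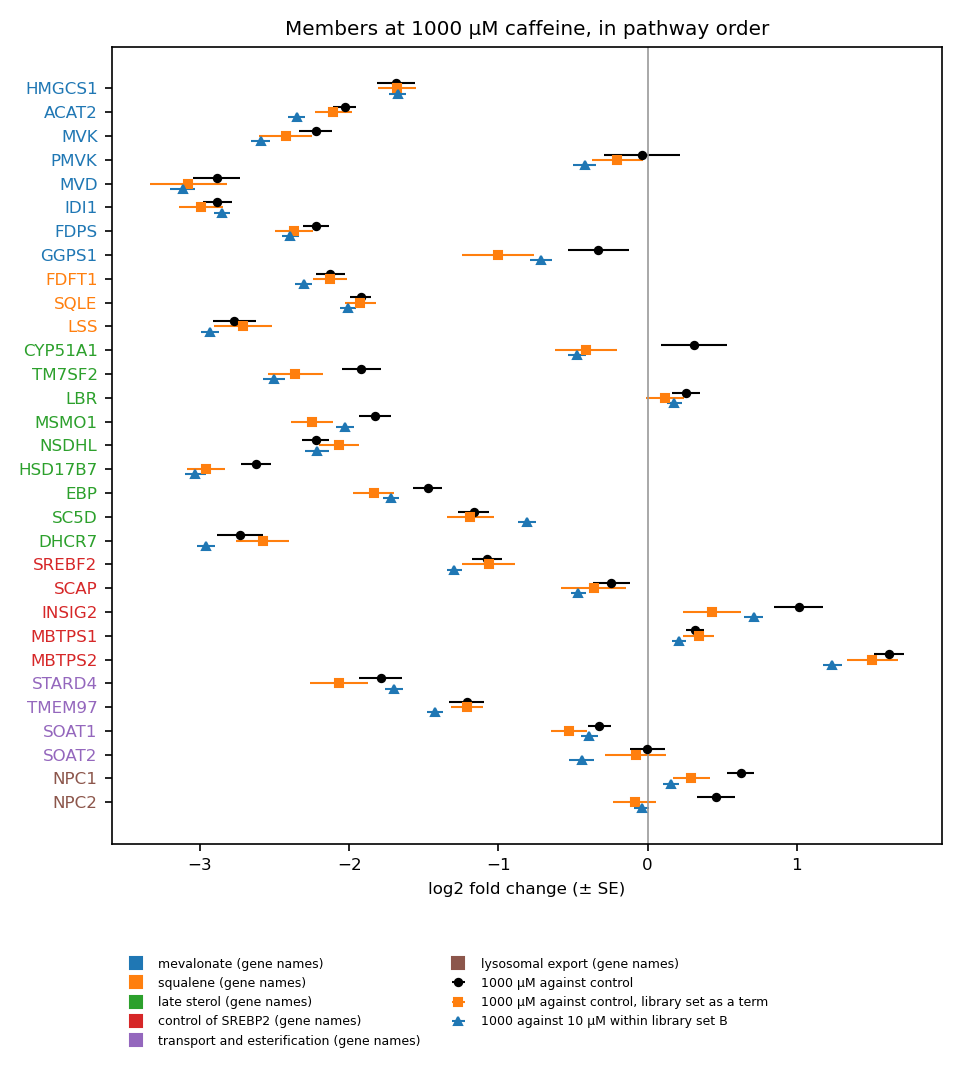
The log2 fold change of each of the 31 genes at 1000 µM (x axis, ± SE), in pathway order down the y axis, against control without and with the library set as a term, and against 10 µM within set B. Most synthesis enzymes lie between -1 and -3 in all 3 fits, whereas MBTPS2 lies above 1 in each.

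Promoters of genes that the comparisons turn on are given because SREBP2 and NF-Y act on short sequences near the start. RefSeq promoters were available for 27 of the 31 genes, as 36 windows from 250 bases before to 50 bases after a start. Each sequence here is the 250 bases before the start on the gene's own strand in GRCh38.p14, with capitals for CCAAT, the box that NF-Y binds, and for CACNCCAC or the longer TCACNCCAC, letters of sterol regulatory elements, on either strand. SREBF2 lies at chr22:41832855-41833104 on the plus strand, IDI1 (its second listed start) at chr10:1048887-1049136 on the minus strand, MVD at chr16:88663092-88663341 on the minus strand, FDPS at chr1:155308616-155308865 on the plus strand and HSD17B7 at chr1:162790452-162790701 on the plus strand. These 5 genes fell at 1000 µM. MBTPS2, at chrX:21839367-21839616 on the plus strand, rose and is shown for contrast.
SREBF2: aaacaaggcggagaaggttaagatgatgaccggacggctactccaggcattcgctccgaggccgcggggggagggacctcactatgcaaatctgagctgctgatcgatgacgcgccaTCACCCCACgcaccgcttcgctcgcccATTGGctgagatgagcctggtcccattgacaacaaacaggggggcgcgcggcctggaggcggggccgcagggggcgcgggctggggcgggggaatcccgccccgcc
IDI1: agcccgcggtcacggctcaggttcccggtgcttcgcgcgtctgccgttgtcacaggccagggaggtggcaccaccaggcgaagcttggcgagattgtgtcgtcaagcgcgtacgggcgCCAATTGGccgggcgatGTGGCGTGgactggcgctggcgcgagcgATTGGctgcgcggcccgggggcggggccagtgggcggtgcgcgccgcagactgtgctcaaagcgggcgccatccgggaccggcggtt
MVD: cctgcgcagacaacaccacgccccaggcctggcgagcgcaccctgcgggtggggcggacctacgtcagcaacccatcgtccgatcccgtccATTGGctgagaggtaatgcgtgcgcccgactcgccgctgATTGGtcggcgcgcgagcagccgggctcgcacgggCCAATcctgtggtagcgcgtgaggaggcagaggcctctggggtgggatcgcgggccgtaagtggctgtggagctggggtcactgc
FDPS: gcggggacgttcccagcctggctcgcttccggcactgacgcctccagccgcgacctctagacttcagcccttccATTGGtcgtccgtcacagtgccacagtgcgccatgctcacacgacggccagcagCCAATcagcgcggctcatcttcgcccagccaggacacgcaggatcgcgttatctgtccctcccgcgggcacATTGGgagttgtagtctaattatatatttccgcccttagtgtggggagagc
HSD17B7: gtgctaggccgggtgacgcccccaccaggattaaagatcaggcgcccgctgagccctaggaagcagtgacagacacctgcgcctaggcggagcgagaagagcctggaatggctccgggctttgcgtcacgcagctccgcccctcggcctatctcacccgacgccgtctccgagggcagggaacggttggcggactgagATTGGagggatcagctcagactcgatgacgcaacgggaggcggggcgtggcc
MBTPS2: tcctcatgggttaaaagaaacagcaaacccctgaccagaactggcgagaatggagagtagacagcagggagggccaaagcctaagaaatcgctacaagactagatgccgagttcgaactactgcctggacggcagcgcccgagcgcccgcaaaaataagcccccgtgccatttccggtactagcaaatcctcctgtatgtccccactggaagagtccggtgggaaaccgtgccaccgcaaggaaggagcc

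SREBF2 was the 1 gene whose window held TCACNCCAC, which 1.39% of 27305 genes with a RefSeq promoter held. The shorter CACNCCAC, which is contained in the longer one, was in windows of IDI1, SC5D and SREBF2, against 7.05% of all genes. CCAAT was found in all 17 genes that fell and had a window, in 1 of 6 that rose (NPC2) and in 1 of 4 that were not called (GGPS1), against 39.7% of all genes. MVK and NSDHL held 5 matches each and MSMO1 held 4. The Sp1 letters GGGCGG were in 16 of the 17 that fell, in 3 of the 6 that rose and in all 4 not called, against 48.3%. Genes with several listed starts had more chances of a match. ACAT2, FDFT1, SQLE and SOAT2 had no window.

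**Figure D2:**
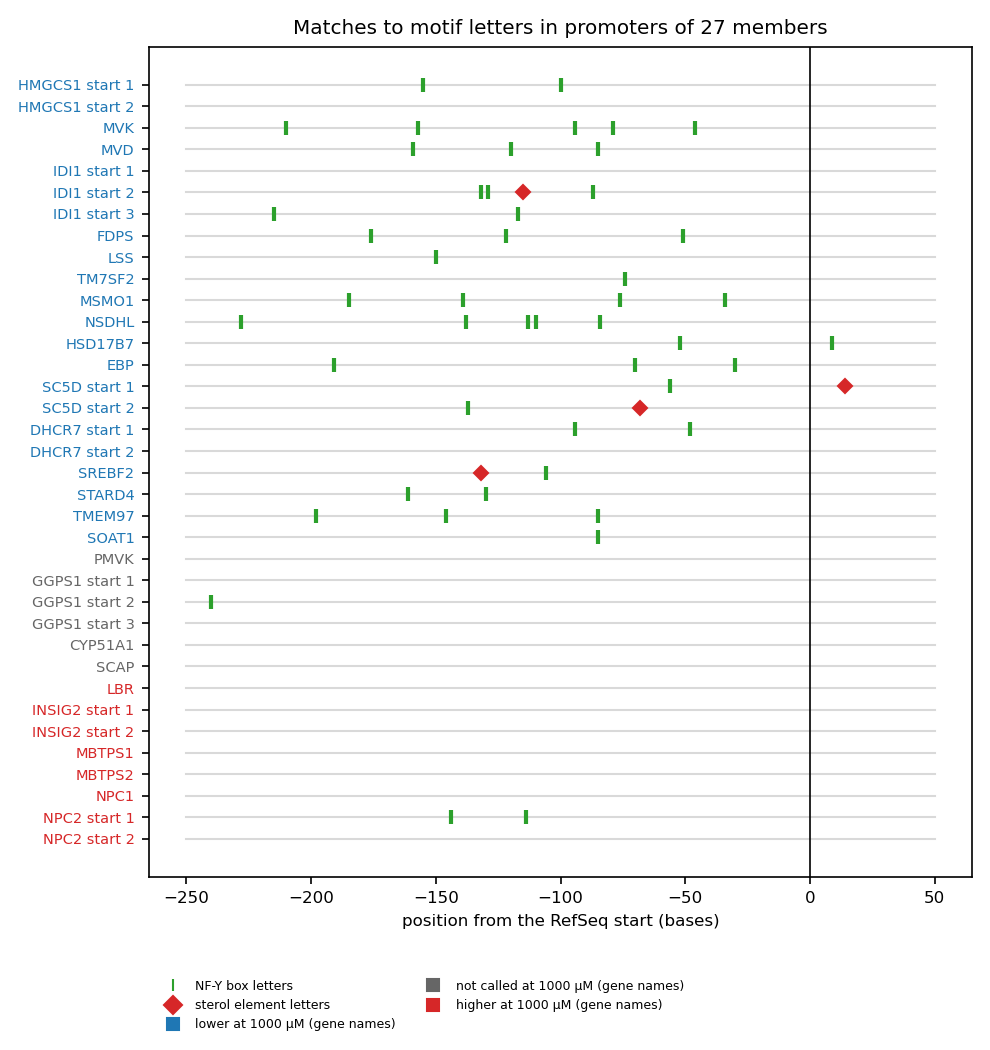
Matches to CCAAT (green bars) and CACNCCAC (red diamonds) in the 36 promoter windows of 27 genes, by position from the RefSeq start in bases. Gene names are blue where the gene fell at 1000 µM, red where it rose and grey where it was not called, and the green bars lie almost wholly in the blue rows.

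The first stage runs from acetyl-CoA through mevalonate to the isoprenoid diphosphates. Of its 8 genes, 6 fell at 1000 µM and none rose, against 29.1% of all features called lower and 28.5% higher, with a median of 22.9% of control. They were ACAT2, HMGCS1, MVK, MVD, IDI1 and FDPS. PMVK and GGPS1, the kinase after MVK and the synthase that leads away to geranylgeranyl diphosphate, were not called.

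IDI1, the isomerase that sets the balance of the 2 five-carbon isoprene units, had the smallest p of the stage. Its levels were 343, 398 and 467 CPM in the controls and 52.4, 54.4 and 56.9 CPM at 1000 µM. At 100 µM they were 314, 267 and 313 CPM, and the 12 libraries at 0.01 to 10 µM lay between 363 and 396 CPM. The 100 µM libraries lay below all controls and the 1000 µM libraries far below those. The change on the log2 scale was -2.88 ± 0.0967 at 1000 µM (edgeR, adjusted p = 5.21e-14) and -0.43 ± 0.0898 at 100 µM (adjusted p = 0.000629), and with the set term it was -0.60 at 100 µM (adjusted p = 0.0108).

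FDPS, which joins the isoprene units into farnesyl diphosphate, measured 439, 491 and 532 CPM in the controls, 309, 343 and 303 CPM at 100 µM and 108, 101 and 103 CPM at 1000 µM. Across 0.01 to 10 µM its libraries lay between 472 and 611 CPM. The 3 levels did not overlap. The fold change in log2 was -0.61 ± 0.0825 at 100 µM (edgeR, adjusted p = 6.86e-06) and -2.22 ± 0.0862 at 1000 µM (adjusted p = 2.02e-13). FDPS has 8 named pseudogenes, so its count is uncertain to the extent that reads were shared with them.

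ACAT2, the cytosolic thiolase that makes acetoacetyl-CoA, showed 312, 303 and 335 CPM in the controls and 77.1, 78.9 and 76.8 CPM at 1000 µM. At 10 µM it was at 410, 378 and 388 CPM and at 100 µM at 404, 411 and 378 CPM, above all controls in both groups. It was called higher at 10 and 100 µM without the set term (log2 fold changes of 0.31 and 0.33), and at 1000 µM it fell by 2.03 ± 0.0758 (edgeR, adjusted p = 1.68e-13). Both higher calls were lost with the set term (0.22 at 10 µM and 0.27 at 100 µM, adjusted p = 0.994 and 0.18), and that at 10 µM also without replicate 1 of that dose (0.28, adjusted p = 0.0558). The exons of ACAT2 overlap antisense genes (SOD2, SOD2-OT1 and TCP1) over 2996 bases, and whether strand was used in counting is not given in the sources used here, so its count may include reads from those genes.

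MVD, the decarboxylase that makes the first isoprene unit, was level with IDI1 as the lowest of the 31 genes at 1000 µM relative to control, at 13.5% (167 ± 36.9 to 22.6 ± 1.86 CPM, SD, n = 3). HMGCS1, the synthase at the head of the committed route, fell to 31.1% and MVK, mevalonate kinase, to 21.4%. PMVK was at 11.4 ± 1.55 CPM in the controls and 11.1 ± 3.42 CPM at 1000 µM (log2 fold change -0.04 ± 0.255, edgeR adjusted p = 0.911). The PMVK value at 1000 µM differed between library sets, and within set B the log2 fold change of 1000 against 10 µM was -0.42 ± 0.0785 (adjusted p = 4e-04). GGPS1 also differed between the sets: its log2 fold change at 1000 µM was -0.33 (adjusted p = 0.179), and within set B -0.72 against 10 µM (adjusted p = 2.07e-06). With the set term its level at 1000 µM was 49.99% of control (adjusted p = 0.00294), and without the set C library at that dose the log2 fold change was -0.55 (adjusted p = 0.0339). Its control libraries were at 22.3, 25.7 and 33.6 CPM, and at 1000 µM the set B libraries were at 18.5 and 18.8 CPM and the set C library at 27.7 CPM.

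The second stage makes squalene and closes it into lanosterol, and all 3 of its genes fell at 1000 µM, where 29.1% of all features were lower, with a median of 22.9% of control. With the set term at 100 µM none of the 3 was called, where 8.21% of all features were called lower. Their log2 fold changes in that fit were -0.27 to -0.07. SQLE, squalene epoxidase, moved little before the highest dose. Its control libraries measured 299, 296 and 322 CPM, those at 100 µM 306, 294 and 299 CPM, and those at 1000 µM 75.7, 78.3 and 88.1 CPM. Over the 18 libraries from 0 to 100 µM, SQLE stayed within 294 to 331 CPM. Its log2 fold change was -0.03 ± 0.0653 at 100 µM (edgeR, adjusted p = 0.743) and -1.92 ± 0.0678 at 1000 µM (adjusted p = 8.95e-14).

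FDFT1, squalene synthase, the first enzyme committed to sterols, was at 487, 538 and 542 CPM in the controls, at 522, 446 and 505 CPM at 100 µM and at 105, 110 and 143 CPM at 1000 µM. Its set C library was the highest of the 3 at 1000 µM, and all 3 were far below the controls. The log2 fold change at 1000 µM was -2.13 ± 0.0991 (edgeR, adjusted p = 2.37e-12).

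LSS, the cyclase that forms lanosterol, varied more between controls (394, 373 and 266 CPM). At 100 µM it was at 213, 315 and 235 CPM, which overlapped the lowest control, and at 1000 µM at 54.1, 51.6 and 45.8 CPM, which did not. The change on the log2 scale was -0.44 ± 0.134 at 100 µM (edgeR, adjusted p = 0.0118) and -2.77 ± 0.143 at 1000 µM (adjusted p = 9.62e-12). The call at 100 µM was lost with the set term (-0.27, adjusted p = 0.411) and without any 1 of replicates 1 and 2 of the controls or 1 and 3 at 100 µM (-0.32 to -0.38, adjusted p = 0.0551 to 0.0776).

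The third stage turns lanosterol into cholesterol by removing methyl groups and shifting double bonds. Of its 9 genes, 7 fell at 1000 µM (TM7SF2, MSMO1, NSDHL, HSD17B7, EBP, SC5D and DHCR7) and 1, LBR, rose, against 29.1% of all features lower and 28.5% higher, with a median of 28.2% of control. CYP51A1 was not called. DHCR7, which carries out the last reduction to cholesterol, and HSD17B7 had the lowest log2 fold changes of the stage against control, within their SEs of each other.

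HSD17B7, a keto-reductase of the demethylation complex, was at 49.4, 54.3 and 53.1 CPM in the controls, 55.8, 46.4 and 55.5 CPM at 100 µM and 8.21, 8.57 and 8.66 CPM at 1000 µM. At 10 µM it was at 65.2, 70.1 and 67 CPM, and replicate 3 at 1 µM, also in set B, was at 69.9 CPM, all above the controls. The fold change in log2 was -2.62 ± 0.0985 at 1000 µM against control (edgeR, adjusted p = 1.68e-13) and -3.03 ± 0.0723 against 10 µM within set B (adjusted p = 1.89e-11). HSD17B7 has 2 named pseudogenes.

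NSDHL, the decarboxylating dehydrogenase of the same complex, measured 79.1, 90.2 and 83.7 CPM in the controls, 59.7, 61 and 62.1 CPM at 100 µM and 15.8, 18.3 and 20.1 CPM at 1000 µM. It fell by steps with no overlap between these 3 groups. The log2 fold change was -0.47 at 100 µM (edgeR, adjusted p = 0.000166), with the set term -0.34 (adjusted p = 0.106), and -2.22 ± 0.0895 at 1000 µM (adjusted p = 3.03e-13).

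DHCR7 stood at 340, 349 and 262 CPM in the controls, 257, 234 and 267 CPM at 100 µM and 39.5, 40.2 and 63.6 CPM at 1000 µM. The 100 µM libraries overlapped the lowest control. Its log2 fold change at 1000 µM was -2.73 ± 0.154 (edgeR, adjusted p = 2.79e-11).

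The other 4 that fell ended at different fractions of control: TM7SF2, a sterol C14-reductase, at 26.4%, MSMO1, the C4 methyl oxidase, at 28.2%, EBP, the sterol isomerase, at 36.0% and SC5D, the desaturase, at 44.6%. SC5D was the 1 gene called lower at 10 µM. Its log2 fold changes were -0.40 at 10 µM, -0.50 at 100 µM and -1.16 at 1000 µM (edgeR, adjusted p = 0.0152, 0.00057 and 1.61e-08). SC5D measured 245, 248 and 293 CPM in the controls, and all 15 libraries from 0.01 to 100 µM lay between 151 and 222 CPM, below every control. In the fit with the set term SC5D was the 1 member called at 0.01 µM (log2 fold change -0.36, adjusted p = 0.0342), against 3.02% of features. The call at 10 µM was lost with the set term (-0.34, adjusted p = 0.987), and also without replicate 3 of the controls (-0.31, adjusted p = 0.0727) and without replicate 1 or 2 at 10 µM (-0.37 and -0.40, adjusted p = 0.0686 and 0.0534).

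LBR, an inner nuclear membrane protein with sterol C14-reductase activity like that of TM7SF2, went the other way. It was at 78.8, 77.4 and 92.9 CPM in the controls, 106, 118 and 108 CPM at 100 µM and 108, 105 and 83.5 CPM at 1000 µM. All 100 µM libraries were above the controls, and the set C library at 1000 µM lay among them. The change on the log2 scale was 0.42 at 100 µM (edgeR, adjusted p = 0.00152) and 0.26 ± 0.0956 at 1000 µM (adjusted p = 0.0275). With the set term these were 0.37 (adjusted p = 0.0732) and 0.12 (adjusted p = 0.515), and within set B the rise from 10 to 1000 µM was 0.18 (adjusted p = 0.00589). The call at 1000 µM was also lost without replicate 1 or 2 of that group or of the controls (log2 fold changes of 0.19 to 0.22, adjusted p = 0.104 to 0.145).

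CYP51A1, the lanosterol demethylase, was called higher at 10 and 100 µM and not called at 1000 µM. The controls were at 94.7, 68.1 and 96.6 CPM, the 10 µM libraries at 151, 155 and 171 CPM, the 100 µM libraries at 155, 234 and 146 CPM and the 1000 µM libraries at 113, 120 and 88.7 CPM. At 1 µM the 2 set A replicates were at 80.3 and 92 CPM and the set B replicate at 159 CPM, so libraries of 1 dose differed between the sets. Its log2 fold change was 0.88 at 10 µM and 1.05 at 100 µM (edgeR, adjusted p = 0.0155 and 0.000968), and with the set term -0.003 and 0.48 (adjusted p = 1 and 0.148). The call at 10 µM was lost without replicate 2 of the controls (0.74, adjusted p = 0.0662) and without replicate 3 at 10 µM (0.83, adjusted p = 0.0536). At 1000 µM it was 0.31 (adjusted p = 0.239) and with the set term -0.41 (adjusted p = 0.127). Within set B it fell from 10 to 1000 µM by 0.47 (adjusted p = 1.99e-05). CYP51A1 has 3 named pseudogenes.

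**Figure D3:**
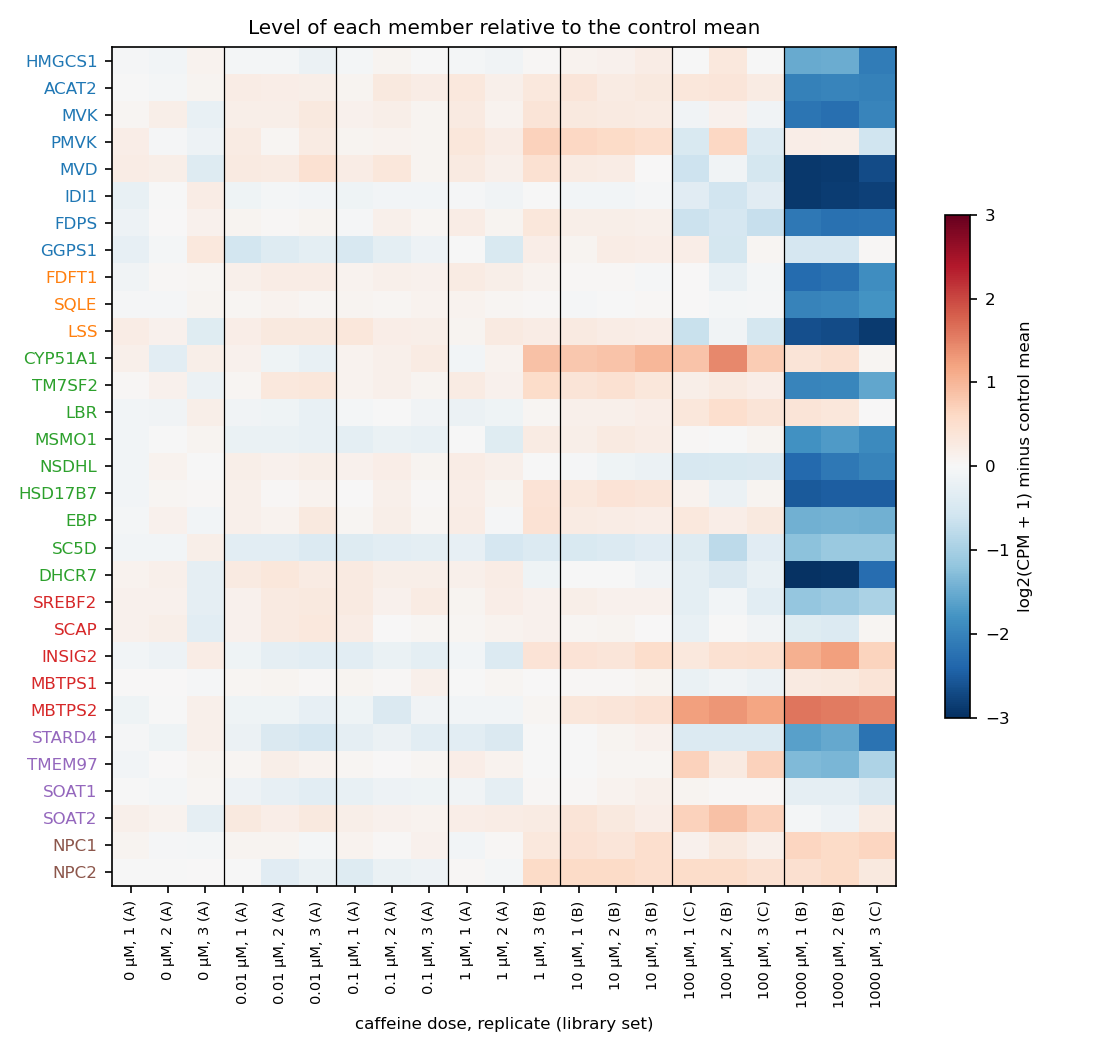
Each row is 1 of the 31 genes in pathway order and each column 1 library (dose, replicate and library set), coloured by log2(CPM + 1) minus the control mean. The 1000 µM columns are blue for most synthesis genes and red for MBTPS2, INSIG2, NPC1 and NPC2, while the columns from 0.01 to 10 µM stay pale apart from those of set B for genes such as CYP51A1 and NPC2.

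Per kilobase of exon, the enzymes differed widely in level. In the controls FDPS was the highest at 131 ± 12.4 CPM per kb (SD, n = 3), followed by FDFT1 at 100 ± 5.95 and IDI1 at 92.6 ± 14.3, the last 2 within their spread of each other. GGPS1 was the lowest at 7.14 ± 1.53, within the spread of PMVK at 8.92 ± 1.21. At 1000 µM CYP51A1 was the highest at 29.9 ± 4.61 CPM per kb, within the spread of FDPS at 28.1 ± 0.994, and HSD17B7 the lowest at 1.77 ± 0.0497.

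**Figure D4:**
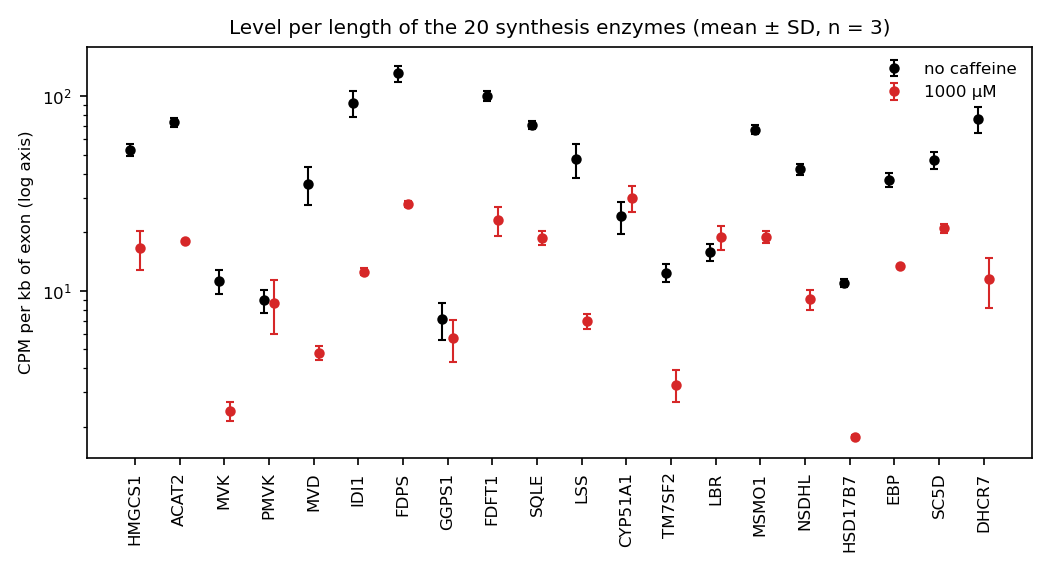
Level per length of the 20 synthesis enzymes in pathway order, in CPM per kb of exon on a log axis, as mean ± SD of 3 libraries without caffeine (black) and at 1000 µM (red). FDPS leads among the controls, and the red points of PMVK, GGPS1, CYP51A1 and LBR lie close to their black ones.

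Among the genes that control SREBP2, its own mRNA fell and those of its second protease and of INSIG2 rose. SREBF2 was at 283, 282 and 213 CPM in the controls, 211, 244 and 207 CPM at 100 µM and 115, 121 and 134 CPM at 1000 µM. The 1000 µM libraries lay below all others. The fold change in log2 at 1000 µM was -1.08 ± 0.1, or 47.4% of control (edgeR, adjusted p = 2.81e-08), and -1.07 with the set term (adjusted p = 9.55e-05). SCAP was not called at 1000 µM (log2 fold change -0.24 ± 0.124, adjusted p = 0.103), but was called lower without replicate 3 of the controls (-0.38, adjusted p = 0.00881) or of the 1000 µM group (-0.42, adjusted p = 0.00438), and within set B it was lower than at 10 µM by a log2 fold change of -0.46 (adjusted p = 5.42e-06).

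MBTPS2, the site-2 protease that makes the final cut releasing SREBP2, had the largest rise of the 31 genes at 1000 µM. Its levels were 12.2, 13.3 and 15.3 CPM in the controls, 17.5, 17.6 and 18.6 CPM at 10 µM, 33, 35.7 and 31.9 CPM at 100 µM and 43.5, 42.1 and 39.7 CPM at 1000 µM. The 4 groups did not overlap, and the set B and set C libraries at 100 and 1000 µM lay close together. The log2 fold change was 1.30 ± 0.0999 at 100 µM (edgeR, adjusted p = 6.63e-09) and 1.62 ± 0.1 at 1000 µM (adjusted p = 9.82e-11), and with the set term the levels were 234% and 284% of control (adjusted p = 8.44e-05 and 1.47e-06). The rise at 10 µM (0.40, adjusted p = 0.0139) was not called with the set term, nor without replicate 1 of the controls (0.33, adjusted p = 0.0637) or replicate 3 at 10 µM (0.37, adjusted p = 0.0537). Exons of MBTPS2 overlap YY2 and RF00019 on the same strand, so its count is uncertain to the extent that reads were shared with them. Same-strand genes also overlap exons of GGPS1 (TBCE), TM7SF2 (VPS51), CYP51A1 (AC000120.2 and AC000120.3) and NPC2 (MIR4709).

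MBTPS1, the site-1 protease that makes the first cut, moved little: 137, 137 and 134 CPM in the controls, 119, 125 and 119 CPM at 100 µM and 164, 167 and 177 CPM at 1000 µM. It was below all controls at 100 µM and above them at 1000 µM. The change on the log2 scales were -0.17 ± 0.0592 and 0.32 ± 0.0592 (edgeR, adjusted p = 0.0266 and 0.000143), and with the set term the first was -0.14 (adjusted p = 0.409) and the second 0.34 (adjusted p = 0.0144). The call at 100 µM was also lost on leaving out any 1 of 5 libraries (replicates 1 and 2 of the controls, 2 at 0.1 µM, 1 and 3 at 100 µM), with an adjusted p of 0.0553 to 0.0919.

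INSIG2, which encodes a protein that retains SCAP, was at 73.3, 70.1 and 90 CPM in the controls and 164, 183 and 123 CPM at 1000 µM. At 10 µM it was at 103, 99.6 and 111 CPM, and at 1 µM at 72.6 and 58.2 CPM in set A and 103 CPM in set B. All 1000 µM libraries were above the controls, the set C library least so. The fold change in log2 at 1000 µM was 1.01 ± 0.163 (edgeR, adjusted p = 3.05e-05), with the set term 0.43 (adjusted p = 0.0909), and within set B 0.71 against 10 µM (adjusted p = 6.27e-07).

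**Figure D5:**
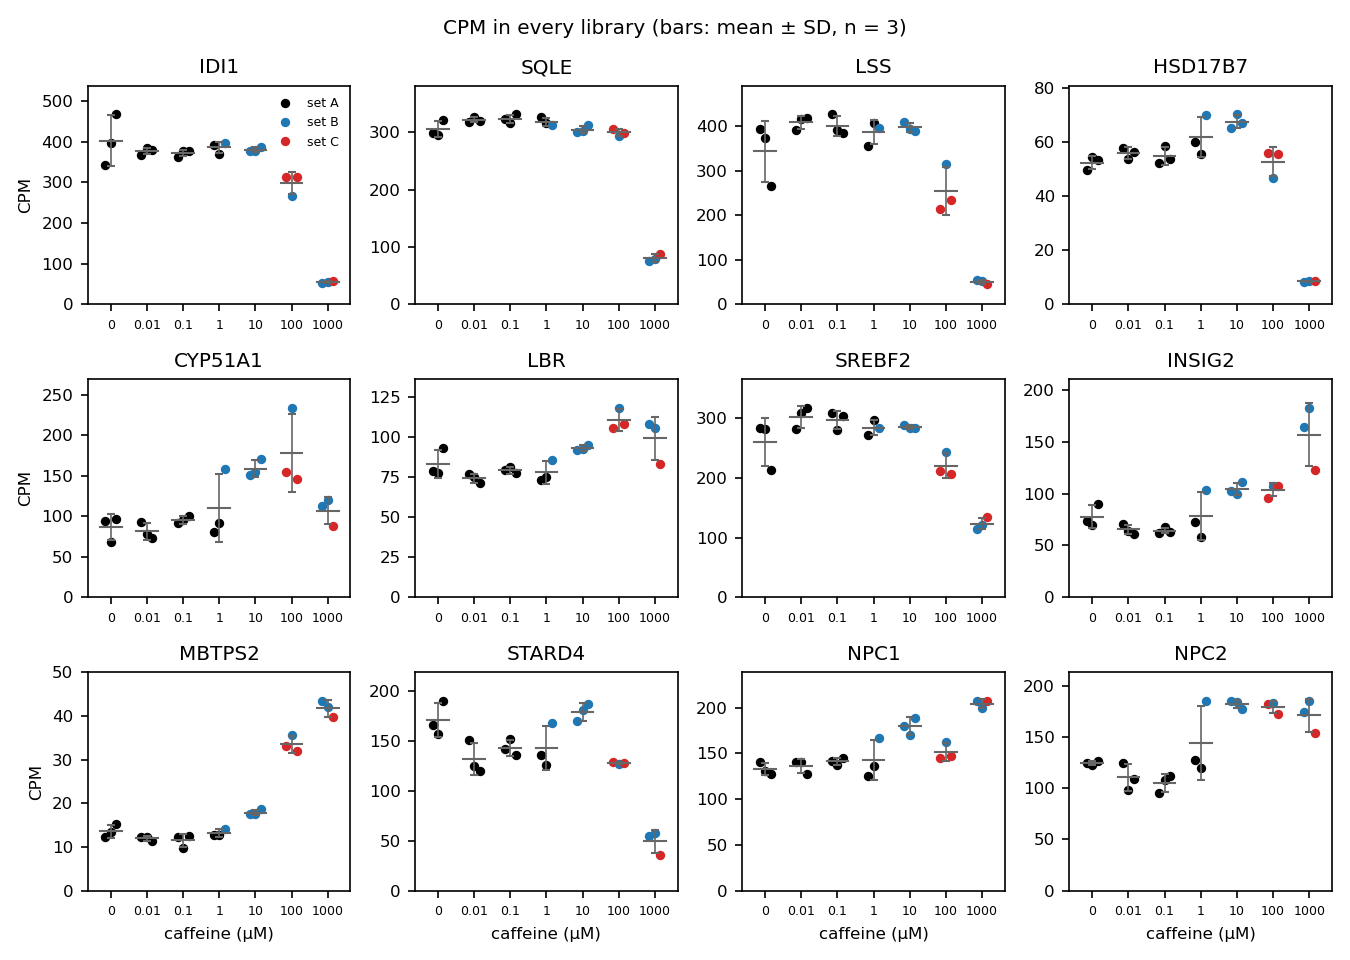
CPM of 12 genes in each library by caffeine dose in µM (points coloured by library set, bars mean ± SD of 3 libraries). IDI1, SQLE, LSS, HSD17B7, SREBF2 and STARD4 are lowest at 1000 µM, MBTPS2 climbs from 10 µM on, and CYP51A1 and NPC2 are higher in set B than in set A at 1 µM.

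Of the 4 genes for sterol movement and esterification, 3 fell at 1000 µM, against 29.1% of all features. STARD4, a soluble carrier that shuttles sterol between membranes, was at 166, 157 and 190 CPM in the controls, 129, 127 and 128 CPM at 100 µM and 54.4, 57.7 and 36.2 CPM at 1000 µM, with no overlap between these 3 groups. It was also below every control at 0.01 µM (151, 125 and 120 CPM) and 0.1 µM (142, 152 and 136 CPM), without a call. At 1 µM it was at 136, 126 and 168 CPM and at 10 µM at 170, 181 and 187 CPM. The 100 µM level was thus not below all lower doses. Its log2 fold change was -0.42 at 100 µM (edgeR, adjusted p = 0.0179), and -1.79 ± 0.142 at 1000 µM (adjusted p = 3.19e-09). The call at 100 µM was lost with the set term (-0.57, adjusted p = 0.0683) and without replicate 3 of the controls (-0.32, adjusted p = 0.0954).

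TMEM97, an endoplasmic reticulum protein that binds the lysosomal carrier NPC1, was higher at 100 µM and lower at 1000 µM. It measured 118, 125 and 131 CPM in the controls, 202, 149 and 203 CPM at 100 µM and 48.8, 47.8 and 65.2 CPM at 1000 µM. The 100 µM libraries were all above the controls, with the 2 of set C highest, and those at 1000 µM all below. The log2 fold changes were 0.57 ± 0.115 and -1.21 ± 0.117 (edgeR, adjusted p = 0.000502 and 4.42e-08), and both were called with the set term (0.43 and -1.21).

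SOAT1 and SOAT2 esterify cholesterol for storage and, in the liver, for lipoproteins. SOAT1 was at 69, 66.7 and 71.6 CPM in the controls and 57.2, 57.3 and 51.1 CPM at 1000 µM, below all of them (log2 fold change -0.32 ± 0.0787, edgeR adjusted p = 0.00166). SOAT2 was at 17.1, 16.7 and 12.6 CPM in the controls, 25.5, 28.9 and 25.2 CPM at 100 µM and 14.6, 13.7 and 18.2 CPM at 1000 µM. It was thus above all controls at 100 µM (log2 fold change 0.78 ± 0.114, adjusted p = 1.84e-05, with the set term 0.69 and 0.0311) and overlapped them at 1000 µM (-0.00 ± 0.115, adjusted p = 0.994). Within set B SOAT2 was lower at 1000 than at 10 µM by a log2 fold change of -0.44 (adjusted p = 0.00041).

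NPC1 and NPC2 pass cholesterol from the lysosome's lumen to its membrane and out. NPC1 was at 140, 131 and 128 CPM in the controls, 180, 170 and 189 CPM at 10 µM, 145, 162 and 147 CPM at 100 µM and 207, 199 and 208 CPM at 1000 µM. Every 10 and 1000 µM library was above the controls, and the set B and set C libraries at 1000 µM lay close together. The change on the log2 scale at 1000 µM was 0.62 ± 0.0894 (edgeR, adjusted p = 7.47e-06), with the set term 0.29 (adjusted p = 0.0703), and within set B 0.16 against 10 µM (adjusted p = 0.0228). Antisense genes also overlap exons of NPC1 (RMC1, 604 bases), HMGCS1 (703 bases), FDPS (693), IDI1 (643) and TMEM97 (361), the last of which has 2 named pseudogenes.

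NPC2 was at 125, 123 and 127 CPM in the controls, 185, 185 and 178 CPM at 10 µM, 183, 183 and 173 CPM at 100 µM and 175, 186 and 154 CPM at 1000 µM. At 1 µM it was at 127 and 120 CPM in set A and 186 CPM in set B, so libraries of that dose differed between the sets, whereas at 100 µM those of sets B and C lay close together. Its log2 fold change at 1000 µM was 0.46 ± 0.126 (edgeR, adjusted p = 0.00431), with the set term -0.09 (adjusted p = 0.678), and within set B -0.04 (adjusted p = 0.504).

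The step from 100 to 1000 µM, which does not involve the controls, held most of the fall of the synthesis enzymes. All 17 enzymes called in it were lower (edgeR), of 20 tested, with a median of 27.2% of the 100 µM level. Over all 31 genes 4 were higher and 22 lower, against 44% of features called, 21.8% higher and 22.3% lower. The 4 were INSIG2, MBTPS1, MBTPS2 and NPC1. Within set B, where 2 libraries at 1000 µM were set against 3 at 10 µM, 5 genes were higher and 25 lower, against 69.1% of 17090 features, 34.1% higher and 35% lower, and the median of the 20 enzymes was 20.9% of the 10 µM level. LBR joined the 4 in being higher, and NPC2 was the 1 gene not called. In the fit over all libraries, 1000 against 10 µM called 3 genes higher and 23 lower, against 52.1% of features, 26.1% higher and 26% lower.

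At 100 µM with the set term, FDPS, IDI1, SC5D and GGPS1 were lower and MBTPS2, SOAT2 and TMEM97 higher than in the controls (edgeR), against 17.3% of features called, 9.14% higher and 8.21% lower. GGPS1 was not called at 100 µM without the term. Its levels there, 30.8, 18.4 and 28.1 CPM, overlapped those of the controls, 22.3, 25.7 and 33.6 CPM. In the fit with the set term 0 of the 31 genes were called at 10 µM, against 0.0279% of features called, where without the term DESeq2 called 8. The 7 genes called higher at 10 µM without it were ACAT2, CYP51A1, TM7SF2, HSD17B7, MBTPS2, NPC1 and NPC2. Leaving out replicate 1 or 3 of the controls, or any 1 library at 10 µM, lost the call of TM7SF2 (edgeR, adjusted p = 0.0645 to 0.116). That of HSD17B7 was lost without replicate 2 at 10 µM (adjusted p = 0.0525). All 10 µM libraries belong to set B and all controls to set A, and the 2 sets share only the 1 µM group, so dose and set at 10 µM rest on replicate 3 at 1 µM to be separated. No other group joins set A to set B or C, so the values with the set term at 100 and 1000 µM against control rest on that library too. A test of all 6 doses jointly called 29 of the 31 genes, against 73.6% of features, and the slope on dose rank called 6 higher and 13 lower, against 55.3%, 29.6% higher and 25.7% lower. With the set term the slope called 1, against 4.27%.

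Genes next to the pathway, in lists chosen by function, moved in a mixed way at 1000 µM. Among 13 genes of the isoprenoid branch, which carries farnesyl and geranylgeranyl diphosphate to dolichol, ubiquinone and prenylated proteins, 5 were higher and 3 lower, with a median log2 fold change of 0.11, a share called near the 57.6% of all features. Under the set term 3 were higher and 3 lower, against 38% of all features called in that fit. RABGGTA and RABGGTB encode the 2 chains of the enzyme that prenylates Rab proteins, and they moved in opposite directions, with log2 fold changes of -1.87 ± 0.157 and 0.92 ± 0.0736 (edgeR, adjusted p = 6.57e-09 and 3.52e-09). DHDDS, a chain of the dolichol synthase, changed by -0.58 (adjusted p = 2.02e-06).

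Of 8 genes whose products degrade or retain sterol pathway proteins, 5 rose and 2 fell at 1000 µM, against 57.6% of all features called, with a median log2 fold change of 0.77. When the set was a term 5 were higher and 0 lower, against 18.2% and 19.8% of all features in that fit, with a median of 0.64. RNF145, a membrane ubiquitin ligase, was at 16.4 ± 2.21 CPM in the controls and 40.5 ± 3.70 CPM at 1000 µM (SD, n = 3), a log2 fold change of 1.30 (edgeR, adjusted p = 7.58e-09). ERLIN1, a scaffold of the endoplasmic reticulum that binds cholesterol, rose by 0.95 and PAQR3, which tethers SCAP and SREBP at the Golgi, by 1.10 on the log2 scale (adjusted p = 1.77e-08 and 1.17e-07), and all 3 were called with the set term.

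Of 9 tested genes for liver X receptor targets and efflux, 4 were higher and 2 lower at 1000 µM, against 57.6% of all features called, with a median log2 fold change of 0.31. Adding the set term left 1 gene higher and 3 lower, a share called near the 38% of all features in that fit, with a median of -0.003. SMPDL3A, a secreted phosphodiesterase, was at 33.9 ± 4.68 CPM in the controls, 22.7 ± 1.62 CPM at 100 µM and 65.7 ± 0.824 CPM at 1000 µM (SD, n = 3), lower and then higher than control by edgeR (adjusted p = 0.00019 and 2.73e-07). LPCAT3, a phospholipid remodelling enzyme, fell to 38.3% and SCARB1, the receptor for high-density lipoprotein, to 50.02% of control at 1000 µM (adjusted p = 2e-10 and 5.38e-07).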

How the data were processed

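Poly(A)-selected RNA from 21 cultures of HepG2 cells was sequenced. The deposited table gives un-normalized whole-number counts of reads for each feature. Per the submitters' processing notes, HISAT2, DESeq2 and GRCh38 were used; the counting tool, annotation release and use of strand are not given in the sources used here. Another 21 per-sample columns were left out. Groups came from the dose in the titles, and symbols from Ensembl identifiers (24852 of 37637 features matched). The members and lists were chosen with earlier results of these data known.

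Filtering used filterByExpr and scaling TMM. The test was the robust quasi-likelihood test of edgeR 4.0.16, run in R 4.3.3, in 1 fit with a mean per group. The SE is the absolute log2 fold change over the square root of F. DESeq2 1.42.0, other scalings and filters, a replicate block, a library set term and leaving out each library were alternatives. Library sets came from average-linkage clustering on 13 mitochondrial mRNAs, with the number of sets at the highest mean silhouette (0.571). The labels name no batch. P-values measure the spread between these libraries, and no more is said of the cultures than that they were biological replicates. No 2 replicates agreed within sampling noise (chi-square per gene at least 3.59 over 21 pairs). Exon lengths and overlaps came from GENCODE 29, and promoters from RefSeq on GRCh38.p14; the bases after the start were found in a GENCODE transcript for 30 of the 36 promoters of members. Values in every library are given for up to 3 genes per role with the smallest p at 1000 µM and for every member called higher there; those of GGPS1, CYP51A1, SC5D and SOAT2 were added after their values were seen. Up to 3 genes per other list were named by the same p. On data simulated for 1000 µM against control over 17951 features, the test recovered 27 of 67 genes changed 1.5-fold, 40 of 67 changed 2-fold and 60 of 66 changed 4-fold, with 5 false calls. The simulated counts held no difference between library sets, so the 5 false calls do not measure calls that rest on the sets.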

Additional observations from a re-analysis of the deposited data

How the results depend on the processing

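The library set term moved the counts most: it gave 1 call at 0.01 µM in place of 0, 0 at 10 µM in place of 8, 7 at 100 µM in place of 17 and 1 for the slope in place of 19. Of the genes called without it, the log2 fold change took the opposite sign for CYP51A1 at 10 µM (-0.003397), NPC2 at 10 and 1000 µM (-0.03773 and -0.08725), and EBP and INSIG2 at 100 µM (-0.1123 and -0.05635). DESeq2 called 1 gene at 0.01 µM and 2 at 1 µM. A slope on the dose itself in place of its rank called 25 genes, 4 higher and 21 lower, in place of 6 and 13. Total counts without TMM shifted the median of all features at 10 µM from 0.00 to 0.14 and gave 13 calls there, 13 higher and 0 lower in place of 7 and 1. The share of all features called was not counted for the fits with DESeq2, the dose itself or total counts. Their counts can thus be set only against those of the main fit. The causes were not tested.

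Leaving out each library in turn gave 0 to 0 calls at 0.01, 0.1 and 1 µM, 5 to 10 for 10 µM (5 without any 1 of its own libraries), 12 to 19 for the 100 µM group, 25 to 28 for 1000 µM against control, 25 to 26 for 1000 against 100 µM, 23 to 28 for 1000 against 10 µM, 28 to 31 for the joint test, 16 to 20 for the slope and 28 to 30 within set B. At 1000 µM every alternative run called 20 to 22 genes lower. The replicate numbers did not pair the libraries: same-numbered deviations had a mean correlation of -0.108 to 0.152 over 21 pairs of groups, none had every pair over 0.1, and 33 of 126 comparisons were highest with their own number. A replicate block gave 0, 0, 0, 8, 16 and 26 calls at the 6 doses in rising order, 26 for 1000 against 100 µM, 25 for 1000 against 10 µM, 29 for the joint test and 18 for the slope. Of the values for single genes under the alternatives to 4 comparisons (10, 100 and 1000 µM against control, and 1000 against 100 µM), 3412 kept direction and side of the threshold, 82 lost the call, 31 gained one and 5 that had been called changed sign. A further 66 values, called neither before nor after, changed sign, 19 of them with the set term.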

Other observations

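Fatty acid genes commonly driven by SREBP1, the paralog of SREBP2, were lower at 1000 µM in 9 of 11 tested and higher in 1 (GPAM), with a median of 43.8% of control, against 29.1% of all features called lower and 28.5% higher. FADS2, the delta-6 desaturase, was at 169 ± 26.7 CPM in the controls, 329 ± 7.39 CPM at 100 µM and 23.7 ± 4.23 CPM at 1000 µM (SD, n = 3), so it was higher than control at 100 µM and lower at 1000 µM. Its log2 fold changes were 0.96 and -2.84 (edgeR, adjusted p = 2.41e-06 and 1.33e-12), and with the library set term 1.09 and -2.65 (adjusted p = 0.00042 and 1.67e-09). SCD, the stearoyl-CoA desaturase, took the same course, at 3351 ± 134, 4345 ± 62 and 1059 ± 42.9 CPM, with a call at 100 µM that was lost with the set term (log2 fold change 0.19, adjusted p = 0.398). PNPLA3, a lipid droplet protein, was lower at both doses, with log2 fold changes of -0.35 and -2.26 (adjusted p = 0.0256 and 3.45e-11). At 100 µM 6 of the 11 genes were higher and 2 lower than control, against 23.6% and 22.9% of all features, and with the set term 4 were higher and 2 lower, against 9.14% and 8.21%. Their median was 126% of control at that dose and 114% with the set term, and that of the 20 cholesterol synthesis enzymes was 97.8% and 83.0%.

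Among 8 tested sterol transfer genes, 3 were lower at 1000 µM and 0 higher, against 29.1% of all features called lower, so this count says little of the list. LIPA, the lysosomal lipase that frees cholesterol from its esters ahead of NPC2 and NPC1, fell from 361 ± 47.3 CPM to 227 ± 21.9 CPM at 100 µM and 94.9 ± 9.44 CPM at 1000 µM (SD, n = 3). Its log2 fold changes were -0.67 and -1.93 (edgeR, adjusted p = 1.25e-05 and 7.7e-12), and with the set term -0.85 and -2.03. OSBP, which exchanges sterol for a phosphoinositide at the Golgi, was lower by a log2 fold change of -0.57 and STARD3, a late endosomal sterol carrier, by -0.33 (adjusted p = 2.21e-06 and 0.00407); STARD3 was not called with the set term (adjusted p = 0.12).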
